A study of Mus musculus with 4 samples.

Results

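The interferon-induced genes of the ischemic mouse hippocampus were taken from a list of 50 gene symbols, of which 49 were found among the 22609 symbols counted in these RNA-Seq libraries. The symbol Ifi27 was not listed. The list was drawn up with the difference between genotypes in these same libraries known, so every comparison of its members between genotypes below is a description and not a test. There were 4 hippocampus libraries, 2 labelled FLOX+GCI and 2 labelled FBN-ARO-KO+GCI. All came from female mice, 3 to 5 months old by the study's methods, whose ovaries were removed 1 week before surgery and whose common carotid arteries were both closed for 20 min (global cerebral ischemia, GCI), with hippocampi collected after 24 h of reperfusion. In FBN-ARO-KO mice the gene Cyp19a1, which encodes the estrogen-synthesizing enzyme aromatase, is deleted by a Cre recombinase driven by the CaMKIIα promoter in forebrain excitatory neurons, so glia, endothelium and other neurons of the hippocampus keep the gene. FLOX mice served as controls, and the labels do not say whether they carried Cre. No library came from a sham-operated mouse, so the genes are called interferon-induced from what is known of them and not from a change after ischemia.

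Interferons are secreted proteins that cells release when sensors in the cytosol or endosome bind foreign or misplaced nucleic acid. Type I interferon binds its receptor, the kinases JAK1 and TYK2 become active, and a complex that includes STAT2 and IRF9 binds interferon-stimulated response elements (ISREs) before target genes. Interferon gamma acts on genes with gamma-activated sites (GAS), and in the brain microglia, astrocytes, endothelial cells and neurons can all respond.

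The ISRE is shown here because promoter sequence was not looked at when the genes were chosen. They were chosen as known interferon-induced genes, however, so a high share with the ISRE was built into the list and tests nothing. The promoter table of RefSeq on GRCm38.p6, which covers 250 bases before and 50 after each start, held 39 of the 49 genes. The ISRE core was searched on both strands as GAAA, any pair of bases and GAAA again, which reads as TTTC, a pair of bases and TTTC where it lies on the other strand. It was present in 18 of the 39 genes (46.2%) and in 3.99% of the 27025 genes of the table. Of the 10265 genes in the table that were later compared between genotypes, 3.53% held it. TTCNNNGAA, the GAS motif, which is its own reverse complement, was in 9 of the 39 genes (23.1%) and in 9.55% of all genes. Overlapping copies were counted. The stretches below are from genes described later, all taken from the list drawn up with the difference between genotypes known. They are written 5′ to 3′ on the strand of each gene, with the motif letters in capitals. They include a GTPase group, the ubiquitin-like modifier Isg15, IFIT genes and also Stat2 and Slfn5, which differed little between genotypes.
Gbp2: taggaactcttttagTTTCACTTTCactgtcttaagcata
Gbp3: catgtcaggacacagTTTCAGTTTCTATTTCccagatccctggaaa
Irgm1: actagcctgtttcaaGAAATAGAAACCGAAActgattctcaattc
Isg15: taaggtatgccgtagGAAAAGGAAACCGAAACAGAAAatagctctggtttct
Ifit1: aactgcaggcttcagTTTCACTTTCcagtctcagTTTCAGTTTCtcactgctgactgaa
Ifit3: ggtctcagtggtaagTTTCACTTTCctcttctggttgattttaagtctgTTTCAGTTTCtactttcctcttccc
Stat2: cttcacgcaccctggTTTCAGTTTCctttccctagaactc
Slfn5: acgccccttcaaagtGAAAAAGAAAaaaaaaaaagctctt

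These lie at chr3:142620589-142620628 (plus strand) for Gbp2, chr3:142559984-142560029 (plus) for Gbp3, chr11:48871421-48871465 (minus) for Irgm1 and chr4:156200860-156200911 (minus) for Isg15 on GRCm38.p6. On the same build Ifit1 is at chr19:34640770-34640828 (plus), Ifit3 at chr19:34583358-34583431 (plus), Stat2 at chr10:128270261-128270300 (plus) and Slfn5 at chr11:82951932-82951971 (plus). The motif ended 15 bases before the start of Irgm1, 30 before Gbp3, 50 before Gbp2 and 57 before Isg15, with the copies in Gbp3, Irgm1 and Isg15 sharing bases. It was farther upstream of Ifit1, Ifit3, Slfn5 and Stat2, between 76 and 222 bases before the start. A match describes these letters only and is not evidence of a bound site.

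The gene counts of the libraries totaled between 24333396 and 33076795, so 3 counts correspond to between 0.0907 and 0.123 CPM (counts relative to the library's total, with TMM factors), a floor that covers counting error only. Cyp19a1, the deleted gene, was read 4 times in FLOX+GCI replicate 1, 1 time in replicate 2 and 2 times in each FBN-ARO-KO+GCI library, which is too little to check the labels. All 8 markers of hippocampal neurons were measured, led by Camk2a, Snap25 and Grin1. Their sum was 9082 and 9030 CPM in FLOX+GCI and 9354 and 9746 CPM in FBN-ARO-KO+GCI. Nothing states that the libraries of a group came from separate mice, so the spread between them may be technical, and an exact permutation test of 2 against 2 cannot give a two-sided p under 0.33. Values below are given for replicates 1 and 2 of each group, and a log2 fold change is FBN-ARO-KO+GCI over FLOX+GCI from edgeR's quasi-likelihood fit over 14527 genes, with its SE.

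Most of these genes were expressed at a low level. Their median over the 4 libraries was 3.17 CPM, against 23.6 CPM for all genes tested. Mean levels of 8 genes were under 1 CPM, of 10 at least 10 CPM and of 2 at least 100 CPM. Per kilobase of exon, Ly6e was highest at 115 CPM per kb, followed by the RNA-editing enzyme Adar at 39.3, the membrane proteins Ifitm3 and Ifitm2 at 14.3 and 11.7, the mitochondrial nucleotide kinase Cmpk2 at 7.38 and Stat2 at 6.49. At the other end, Zbp1 was at 0.0503 and Mx1 at 0.0309 CPM per kb. Of the 49 genes, 47 passed the filter on low counts. Zbp1, a sensor of left-handed double-stranded nucleic acid, had 5 and 4 counts in FLOX+GCI against 7 and 4 in FBN-ARO-KO+GCI, and Mx1, an antiviral GTPase, had 3 and 2 against 6 and 2. The plot of levels by library shows that most of the spread in level was between genes.

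**Figure D1:**
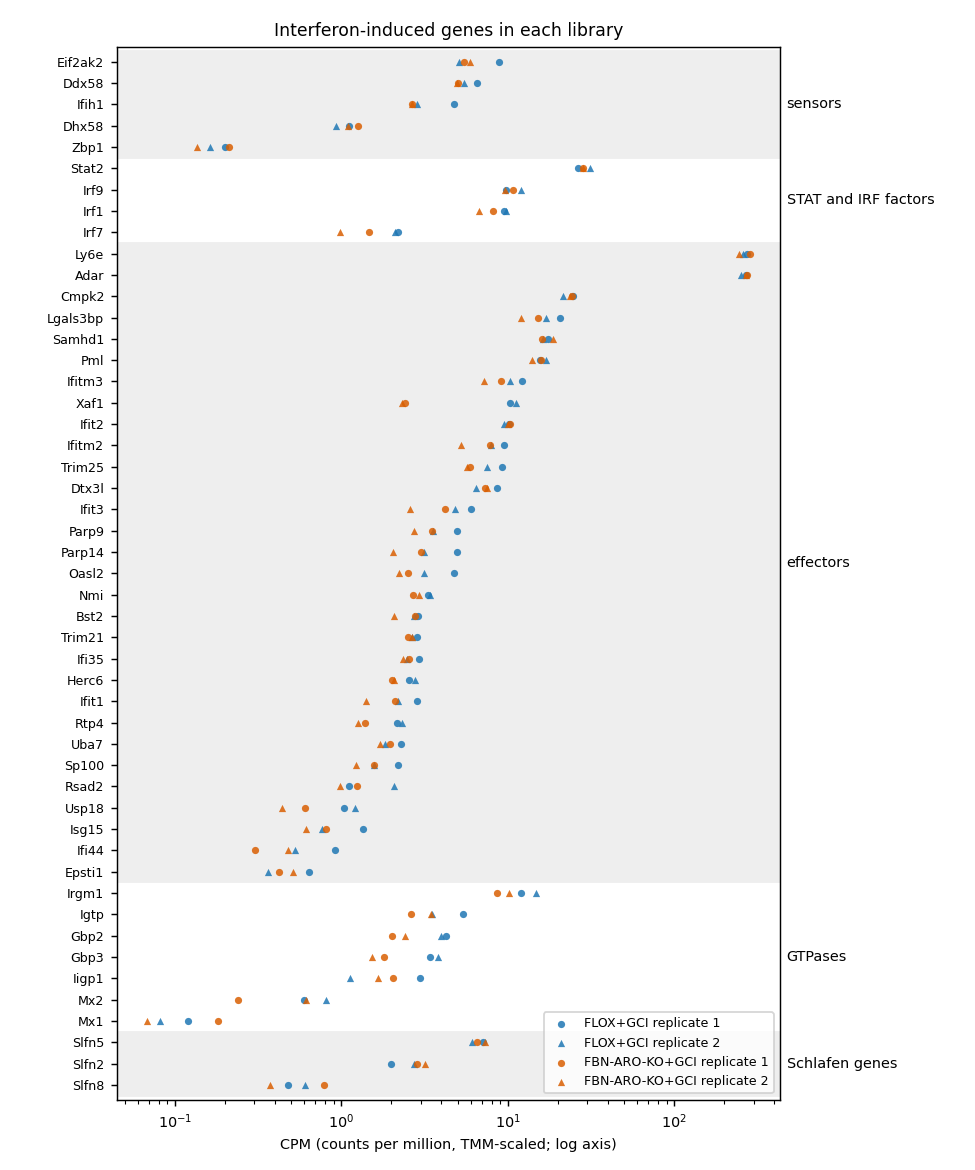
CPM of each of the 49 interferon-induced genes in each of the 4 libraries, on a log axis, grouped by class (sensors, STAT and IRF factors, effectors, GTPases, Schlafen genes). Ly6e and Adar sit above 240 CPM in every library, whereas Xaf1 separates the genotypes most widely, at 10.3 and 11.3 CPM in FLOX+GCI and 2.41 and 2.32 CPM in FBN-ARO-KO+GCI.

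Of the 47 genes, 39 were lower in FBN-ARO-KO+GCI and 8 were higher, whereas 51.3% of all genes tested were lower. The median log2 fold change was -0.37, against -0.01 for all genes. Both FBN-ARO-KO+GCI libraries lay below both FLOX+GCI libraries for 25 of the 47 genes (background 25.8%) and above them for 1, Slfn2 (background 25.9%). At an unadjusted p under 0.05, 12 genes were lower (background 7.82%) and 0 were higher (background 8.72%). These 12 were Irf7, Ifit3, Usp18, Trim25, Ifitm3, Lgals3bp, Oasl2, Xaf1, Rtp4, Gbp2, Gbp3 and Irgm1. By DESeq2, 5 were lower and 0 higher at the same threshold (backgrounds 5.38% and 7.26%). After Benjamini-Hochberg adjustment over all genes, 1 was called by edgeR, Xaf1 (background 0.0138%). DESeq2 gave an adjusted p to only 2 of the 47 genes and called 0 of these 2 (background 4.92% of the 5796 genes with one). Xaf1 was given none, although its unadjusted p by DESeq2 was 1.8e-14. Because the list was chosen on this contrast, nothing is read from these counts. The direction of the 39 and the 8 was the same with size factors and with library totals, and 6 genes changed side when a trend over GC content and transcript length was removed, namely Ifit2, Ly6e, Bst2, Ifi35, Epsti1 and Slfn5. In these bulk samples fewer cells of a type and less RNA per cell cannot be told apart.

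**Figure D2:**
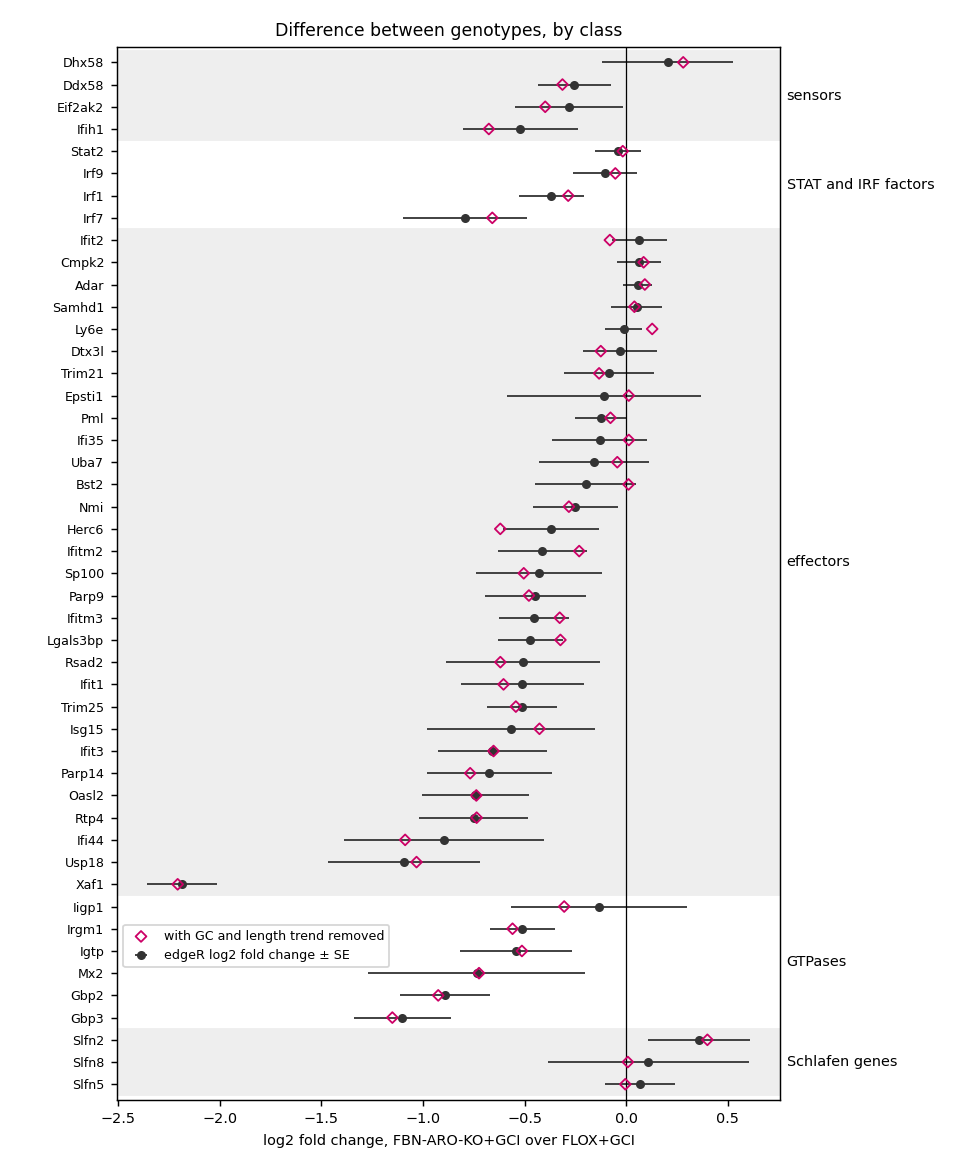
Log2 fold change ± SE of the 47 genes tested, FBN-ARO-KO+GCI over FLOX+GCI (filled circles), and the same with a trend over GC content and transcript length removed (open diamonds), by class. All 6 GTPases tested lie below 0, the 3 Schlafen genes lie above it in the first fit, with Slfn5 at -0.00 in the second, and Xaf1 stands at -2.19.

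Sensors start interferon production when they bind viral or misplaced RNA or DNA. Of the 4 tested, 3 were lower (background 51.3%), with a median log2 fold change of -0.27. Ifih1, which encodes the long double-stranded RNA sensor MDA5, had 4.79 and 2.84 CPM in FLOX+GCI and 2.66 and 2.66 CPM in FBN-ARO-KO+GCI. FLOX+GCI replicate 1 stood apart, and the log2 fold change of -0.52 ± 0.28 was -0.09 without it. Ddx58, which encodes RIG-I, was closer between genotypes, with 6.51 and 5.44 CPM against 5.01 and 4.98 CPM and a log2 fold change of -0.26 ± 0.18, or -0.12 without FLOX+GCI replicate 1. Eif2ak2, the kinase PKR that halts translation on double-stranded RNA, had 8.86 and 5.07 CPM against 5.49 and 5.97 CPM, so its groups overlapped and its log2 fold change of -0.28 ± 0.26 turned to 0.18 without FLOX+GCI replicate 1. Dhx58, a regulator of the other RNA helicase sensors, was at 1.12 and 0.933 CPM against 1.27 and 1.09 CPM, and its groups overlapped too.

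The 4 transcription factors were all lower (background 51.3%), by unequal amounts. Irf7, the interferon-induced factor that amplifies type I interferon production, had 2.19 and 2.11 CPM in FLOX+GCI and 1.48 and 0.990 CPM in FBN-ARO-KO+GCI. The groups did not overlap, and the log2 fold change was -0.79 ± 0.31. Its locus overlaps Phrf1 on the opposite strand, and since the sources used here do not give the strand setting, some of its counts can be from Phrf1. Irf1, a factor of the interferon gamma response, had 9.50 and 9.74 CPM against 8.18 and 6.69 CPM, without overlap, and a log2 fold change of -0.37 ± 0.16. The partners of the interferon-activated complex differed little. Stat2 had 26.6 and 31.4 CPM in FLOX+GCI and 28.2 and 28.2 CPM in FBN-ARO-KO+GCI, at a log2 fold change of -0.04 ± 0.11. Irf9, whose locus overlaps Rnf31 on the same strand, had 9.78 and 12.1 CPM against 10.7 and 9.59 CPM, a log2 fold change of -0.10 ± 0.16. The groups of both overlapped.

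Effector genes, whose products block viral replication or modify host proteins, made up 30 of the list, and 26 were lower, with a median log2 fold change of -0.42 and 17 without overlap (backgrounds 51.3% lower and 25.8% lower without overlap). The largest difference of the whole list was in Xaf1, which encodes a pro-apoptotic protein known as an antagonist of the inhibitor XIAP. Xaf1 had 258 and 278 counts in the FLOX+GCI libraries and 80 and 68 in the deeper FBN-ARO-KO+GCI libraries. In CPM these were 10.3 and 11.3 against 2.41 and 2.32, means of 10.8 ± 0.694 and 2.37 ± 0.0651 (SD, n = 2). Both FBN-ARO-KO+GCI libraries were far below both FLOX+GCI libraries, and the libraries of a genotype were close to each other. The level in FLOX+GCI was 4.55-fold that in FBN-ARO-KO+GCI, at a log2 fold change of -2.19 ± 0.17. It stayed between -2.25 and -2.12 when any library was left out. The adjusted call of Xaf1 was lost without FBN-ARO-KO+GCI replicate 1 (log2 fold change -2.22) and without replicate 2 (-2.16), when edgeR called 0 of all genes. Without Xaf1, 38 of 46 genes were lower and the median stayed at -0.37.

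Xaf1 lies at chr11:72115131-72127235 on the plus strand of mm9, the build of the deposited counts. The 250 bases before its start in the RefSeq table are printed because it showed the largest difference of the list and held neither motif. They are at chr11:72301379-72301628 of GRCm38.p6, plus strand, and carry no capitals for that reason, from which nothing follows about the factors.
Xaf1: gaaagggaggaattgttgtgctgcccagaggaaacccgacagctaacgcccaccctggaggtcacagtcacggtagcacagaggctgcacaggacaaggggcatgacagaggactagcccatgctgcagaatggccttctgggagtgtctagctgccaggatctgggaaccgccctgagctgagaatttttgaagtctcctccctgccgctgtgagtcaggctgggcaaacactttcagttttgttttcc

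The neighbors of Xaf1 did not show a difference of its size. Within 1 Mb on mm9, 24 other genes were tested, 14 lower (background 51.3%) and 10 higher, with a median log2 fold change of -0.05. Groups did not overlap for 11 of the 24 on the lower side (background 25.8%) and 4 on the higher side (background 25.9%). The lowest was the purinergic receptor gene P2rx1 at -0.73 ± 0.47, with at most 24 counts in a library. The highest was Tax1bp3 at 0.45 ± 0.65, with at most 12. None of the 24 was called by edgeR after adjustment (background 0.0138%). At an unadjusted p under 0.05 there were 0 lower (background 7.82%) and 1 higher (background 8.72%). The higher one was Ube2g1, a ubiquitin-conjugating enzyme gene, at 0.41 ± 0.11. Position was not used to choose the genes, although the difference in Xaf1 was.

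**Figure D3:**
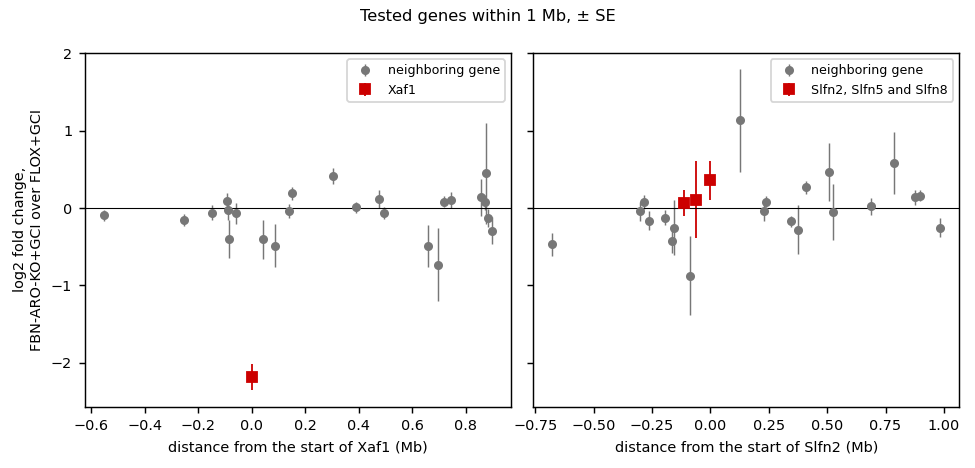
Log2 fold change ± SE, FBN-ARO-KO+GCI over FLOX+GCI, of the tested genes within 1 Mb of Xaf1 (left) and of Slfn2, Slfn5 and Slfn8 (right), against the distance of their starts from that of Xaf1 or Slfn2 in Mb. Xaf1 (square) lies at -2.19, below all 24 neighbors, the lowest of which is at -0.73.

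The IFIT genes, whose products bind foreign RNA and stop its translation, lie together on chromosome 19 and went different ways. Ifit3 had 5.99 and 4.83 CPM in FLOX+GCI and 4.22 and 2.60 CPM in FBN-ARO-KO+GCI, at a log2 fold change of -0.66 ± 0.27 that was between -1.06 and -0.36 with a library left out. Ifit1 had 2.83 and 2.19 CPM against 2.11 and 1.40 CPM, a log2 fold change of -0.51 ± 0.30. In both the groups were separate by a gap narrower than that within either genotype, and the lowest value was FBN-ARO-KO+GCI replicate 2. Ifit2, the most counted of them, had 10.1 and 9.45 CPM against 10.4 and 10.1 CPM, a log2 fold change of 0.06 ± 0.13, and its groups overlapped. The family shares similar sequence, and reads that align to several places were not counted, so its members may be undercounted.

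All 4 genes of the ISG15 pathway, which attaches a ubiquitin-like tag to proteins, were lower (background 51.3%). Isg15, the tag itself, had 1.36 and 0.771 CPM in FLOX+GCI and 0.815 and 0.615 CPM in FBN-ARO-KO+GCI, with overlap, a log2 fold change of -0.57 ± 0.41 that was -0.10 without FLOX+GCI replicate 1. Usp18, the protease that removes the tag and damps signaling at the type I interferon receptor, had 1.04 and 1.22 CPM against 0.603 and 0.444 CPM. Its groups were separate at a log2 fold change of -1.09 ± 0.37, on 13 to 30 counts per library. The ligase Herc6 was at -0.37 ± 0.24, also separate, and the activating enzyme Uba7 at -0.16 ± 0.27, with overlap.

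The 5 ubiquitin and ADP-ribose enzymes were lower too (background 51.3%). Trim25, a ubiquitin ligase that activates RIG-I, had 9.18 and 7.46 CPM in FLOX+GCI and 5.94 and 5.70 CPM in FBN-ARO-KO+GCI, and its log2 fold change was -0.51 ± 0.17. Parp14, an ADP-ribosyltransferase, had 4.99 and 3.12 CPM against 3.02 and 2.05 CPM. For Trim25 and Parp14 the groups were separate, although for Parp14 the gap between FLOX+GCI replicate 2 and FBN-ARO-KO+GCI replicate 1 was narrower than the gap within either genotype. Parp9 was at -0.45 ± 0.25 and its ligase partner Dtx3l, which overlaps it on the opposite strand, at -0.03 ± 0.18. Without FLOX+GCI replicate 1 they were at -0.19 and 0.19, and Parp14 was at -0.30. Trim21, an antibody receptor of the cytosol, was at -0.09 ± 0.22. Of the nuclear body genes, Sp100 was at -0.43 ± 0.31, or -0.17 without FLOX+GCI replicate 1, and Pml, the organizer of these bodies, at -0.12 ± 0.13.

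Membrane and secreted effectors were lower in 5 of 5 cases in the first fit (background 51.3%). Ifitm3, which blocks the entry of viruses by fusion, had 12.1 and 10.3 CPM in FLOX+GCI and 9.17 and 7.20 CPM in FBN-ARO-KO+GCI, at a log2 fold change of -0.46 ± 0.17. Lgals3bp, a secreted galectin-binding glycoprotein, had 20.8 and 16.9 CPM against 15.1 and 12.02 CPM, a log2 fold change of -0.47 ± 0.16. The groups of both were separate by a gap narrower than that within either genotype. Within each genotype replicate 2 was the lower. With the GC and length trend removed the values were -0.33 for Ifitm3 and -0.32 for Lgals3bp. Ifitm2 is a near copy of Ifitm3, so reads that fit both may have gone uncounted. Ifitm2 was at -0.41 ± 0.22, or -0.16 without FBN-ARO-KO+GCI replicate 2. Bst2, known as tetherin because it holds budding virus at the cell surface, was at -0.20 ± 0.25, or 0.01 with that trend removed. Ly6e, a surface protein anchored by a lipid and the most abundant per kilobase, had 273 and 260.0 CPM against 285 and 244 CPM. Its log2 fold change of -0.01 ± 0.09 was 0.13 with the trend removed.

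The enzymes of nucleic acids and nucleotides were divided, with 2 of 5 lower (background 51.3%). Oasl2, of the oligoadenylate synthetase family, had 4.75 and 3.16 CPM in FLOX+GCI and 2.50 and 2.22 CPM in FBN-ARO-KO+GCI, at a log2 fold change of -0.74 ± 0.26. Its groups were separate, and the value was between -1.01 and -0.42 with a library left out. Rsad2, the antiviral enzyme viperin, had 1.12 and 2.07 CPM against 1.24 and 0.990 CPM, so its value of -0.51 ± 0.38 rested on FLOX+GCI replicate 2 and was -0.00 without it. Adar, Cmpk2 and the deoxynucleotide hydrolase Samhd1 were between 0.05 and 0.06, with SEs between 0.07 and 0.13 and overlapping groups. Among the remaining effectors, Rtp4, a receptor-transport protein that restricts virus replication, had 2.16 and 2.31 CPM against 1.39 and 1.26 CPM. Its groups were separate at -0.75 ± 0.27. Ifi44 had 23 and 13 counts against 10 and 14, at -0.90 ± 0.49, or between -1.25 and -0.44 with a library left out. Its groups were separate in CPM by a gap narrower than that within either genotype. The signaling partner Nmi (-0.25 ± 0.21) was separate as well, whereas Ifi35 (-0.13 ± 0.23) and Epsti1 (-0.11 ± 0.48) overlapped.

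The interferon-induced GTPases, most of which attack the membranes of vacuoles that hold microbes, had the lowest class median, -0.64, with 6 of 6 tested genes lower (background 51.3%) and 4 without overlap (background 25.8%). Gbp2 had 4.27 and 3.98 CPM in FLOX+GCI and 2.02 and 2.42 CPM in FBN-ARO-KO+GCI, at a log2 fold change of -0.89 ± 0.22. Gbp3, which lies beside it on chromosome 3, had 3.39 and 3.81 CPM against 1.81 and 1.54 CPM, a log2 fold change of -1.10 ± 0.24. In both, the FBN-ARO-KO+GCI libraries were well below the FLOX+GCI libraries and the gap between genotypes was wider than that within either. Irgm1, a regulator of the immunity-related GTPases, had 11.97 and 14.9 CPM against 8.66 and 10.2 CPM, a log2 fold change of -0.51 ± 0.16, also without overlap. With any library left out, the values were between -1.03 and -0.77 for Gbp2, -1.23 and -0.99 for Gbp3 and -0.66 and -0.35 for Irgm1. Igtp had 5.39 and 3.49 CPM against 2.63 and 3.48 CPM, where FLOX+GCI replicate 2 and FBN-ARO-KO+GCI replicate 2 were nearly equal, and its log2 fold change of -0.54 ± 0.28 was -0.19 without FLOX+GCI replicate 1. Iigp1 had 2.95 and 1.14 CPM against 2.05 and 1.67 CPM, and the FLOX+GCI libraries enclosed the others, so its log2 fold change of -0.13 ± 0.43 ranged from -0.66 to 0.72 with a library left out. Mx2, a relative of Mx1, had 15 and 20 counts against 8 and 18, a log2 fold change of -0.74 ± 0.53 with overlap, or -0.20 without FBN-ARO-KO+GCI replicate 1.

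The same direction was seen in guanylate-binding protein genes outside the list. Over both lists, 6 of 10 such genes passed the filter, and all 6 were lower, without overlap between genotypes (background 25.8%), at log2 fold changes from -1.44 to -0.50. Gbp7 had 5.19 and 5.36 CPM in FLOX+GCI and 3.65 and 3.79 CPM in FBN-ARO-KO+GCI. Gbp5 had 2.31 and 2.27 CPM against 1.36 and 1.23 CPM, and Gbp9 had 2.23 and 1.83 CPM against 1.33 and 1.16 CPM. For these the libraries of a genotype were close together. Gbp4 had 3.03 and 0.893 CPM against 0.724 and 0.717 CPM, so its log2 fold change of -1.44 ± 0.56 rested mainly on FLOX+GCI replicate 1 and was -0.31 without it. The list these 4 came from was also drawn up with earlier results known. After adjustment edgeR called 0 of the 6, which at an unadjusted p under 0.05 were all lower (background 7.82%). These genes are similar in sequence, so reads that fit several of them may have gone uncounted.

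**Figure D4:**
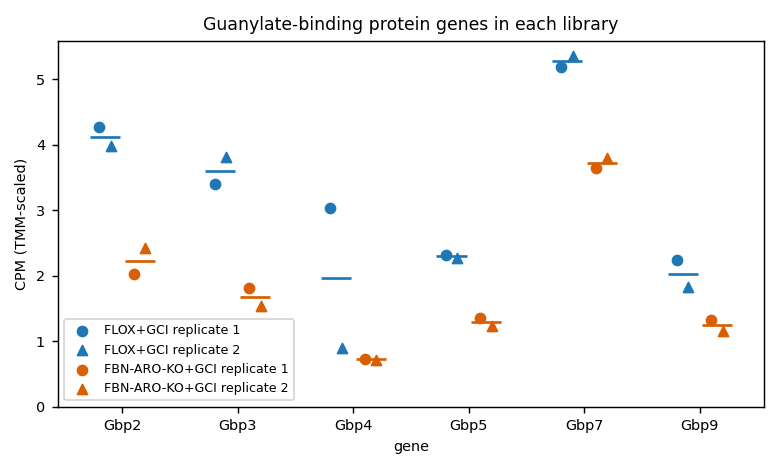
CPM of the 6 tested guanylate-binding protein genes in each library (points) with the mean of the 2 libraries of each genotype (lines). Both FBN-ARO-KO+GCI libraries are below both FLOX+GCI libraries for each gene, with the narrowest gap in Gbp4, where FLOX+GCI replicate 2 is at 0.893 CPM and FBN-ARO-KO+GCI replicate 1 at 0.724 CPM.

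The Schlafen genes, a family of interferon-induced regulators of T cell growth, translation and DNA replication, were the class in which no gene was lower in the first fit. Slfn2 had 2.00 and 2.72 CPM in FLOX+GCI and 2.87 and 3.17 CPM in FBN-ARO-KO+GCI, without overlap but with a gap between genotypes narrower than that within either, and its log2 fold change was 0.36 ± 0.25. Slfn5 had 7.14 and 6.09 CPM against 6.52 and 7.34 CPM, a log2 fold change of 0.07 ± 0.17 that was -0.00 with the GC and length trend removed. Slfn8 had 12 and 15 counts against 26 and 11, a log2 fold change of 0.11 ± 0.49 that turned to -0.53 without FBN-ARO-KO+GCI replicate 1. The groups of Slfn5 and Slfn8 overlapped. The 3 genes lie together on chromosome 11, where 21 other genes within 1 Mb were tested, at a median log2 fold change of -0.04. Of the 21, 12 were lower (background 51.3%). Groups did not overlap for 7 on the lower side (background 25.8%) and 7 on the higher side (background 25.9%). At an unadjusted p under 0.05 by edgeR 3 were lower (background 7.82%) and 1 higher (background 8.72%). The ends of the range of log2 fold changes were other Schlafen genes with few counts. These were Slfn3 at 1.13 ± 0.66 (2 and 8 counts against 16 and 12) and Slfn9 at -0.87 ± 0.51 (11 and 11 against 9 and 6). Chromosome 11 held 11 of the 49 genes, with Xaf1 and the Schlafen genes among them, and 7 of these 11 were lower, as were 32 of the 36 tested genes on other chromosomes.

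The genes whose promoter held the ISRE core were at a median log2 fold change of -0.48, with 16 of 18 lower, and those without it a median of -0.16, with 16 of 21 lower. The ranges were -1.10 to 0.11 and -2.19 to 0.36, and Xaf1 was in the second. Of the genes printed above, Gbp3 with 2 copies of the motif and Gbp2 with 1 copy were at -1.10 and -0.89, whereas Stat2 and Slfn5, also with 1 copy each, were at -0.04 and 0.07. For the GAS motif the medians were -0.20 in the 9 genes with it and -0.42 in the 30 without. These are descriptions, since the members were chosen for this difference.

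Other genes of the interferon pathway were taken from a second list, likewise drawn up with earlier results of these libraries known. Of its 108 genes found, 67 were tested, and 49 were lower and 18 higher (background 51.3% lower). The median log2 fold change was -0.23, against -0.01 for all genes tested. At an unadjusted p under 0.05 edgeR gave 9 lower and 2 higher (backgrounds 7.82% and 8.72%) and after adjustment 0 (background 0.0138%). DESeq2 also called 0 after adjustment, but it gave no adjusted p to most of these genes, Cxcl10 and Socs3 among them. The ligands were at the limit of detection. All 9 interferon genes found had 0 counts in every library but Ifnz, with 1 count in FBN-ARO-KO+GCI replicate 2. Each is thus at or under the floor of 3 counts, and no comparison could be made at this depth. Reads that align to several places were not counted, which may lower these counts.

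The receptors and kinases were well above the ligands and showed no common direction, with 4 of 8 lower. Ifnar1, the first chain of the type I receptor, had 61.6 and 62.2 CPM in FLOX+GCI and 56.5 and 52.7 CPM in FBN-ARO-KO+GCI, at a log2 fold change of -0.18 ± 0.08. Ifnar2, the second chain, had 24.1 and 20.8 CPM against 19.6 and 16.5 CPM, at -0.32 ± 0.13. Jak2, a kinase of the interferon gamma receptor, had 43.2 and 47.8 CPM against 52.6 and 55.0 CPM, at 0.24 ± 0.09, but at 0.12 and outside the unadjusted threshold with the GC and length trend removed. Groups were separate for these genes, lower for both receptor chains and higher for Jak2. Il10rb, a chain of the lambda interferon receptor, was at -0.39 ± 0.20, Tyk2 at -0.12 ± 0.16, Jak1 at 0.08 ± 0.07, and the gamma receptor chains Ifngr1 and Ifngr2 at 0.01 ± 0.11 and 0.03 ± 0.07. Among the other factors Irf2bp1, a co-repressor partner of IRF2, was at -0.27 ± 0.09 but at 0.04 with the GC and length trend removed.

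Negative regulators were divided. Socs3, an inhibitor of cytokine receptor signaling, had 2.27 and 13.4 CPM in FLOX+GCI and 1.48 and 1.54 CPM in FBN-ARO-KO+GCI, so its log2 fold change of -2.37 ± 0.71 rested mainly on FLOX+GCI replicate 2 and was -0.60 without it. Pias1, a SUMO ligase, was at 0.22 ± 0.08, but at 0.12 and no longer past the unadjusted threshold with the GC and length trend removed. Of 31 other interferon-induced genes tested, 28 were lower (background 51.3%), with a median log2 fold change of -0.39. Groups were separate and lower for 11 of the 31 (background 25.8%). At an unadjusted p under 0.05 by edgeR 6 were lower (background 7.82%). The lowest was Cxcl10, a chemokine that attracts T cells, with 10 and 26 counts against 2 and 3, and Oas2, an oligoadenylate synthetase that senses double-stranded RNA, had 21 and 18 counts against 14 and 8. Ifi27l1, which RefSeq on GRCm38.p6 names Ifi27, had 38.4 and 34.4 CPM against 38.9 and 37.7 CPM, a log2 fold change of 0.07, and its groups overlapped.

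The difference between genotypes was accompanied by differences between libraries of the same genotype. The median deviation of the 47 genes from their own means (log2) was 0.25 in FLOX+GCI replicate 1, 0.06 in FLOX+GCI replicate 2, -0.06 in FBN-ARO-KO+GCI replicate 1 and -0.16 in FBN-ARO-KO+GCI replicate 2. Medians over all genes were within 0.01 of 0. FLOX+GCI replicate 1 was the highest of the 4 libraries for 26 of the 47 genes and FBN-ARO-KO+GCI replicate 2 the lowest for 26. Replicate 2 was below replicate 1 for 32 genes (68.1%) in each genotype, against 49.6% and 47.5% of all genes tested. Without FLOX+GCI replicate 1 the median log2 fold change of the genes was -0.19, with 34 lower and 7 at an unadjusted p under 0.05 (background 7.64%). Without FBN-ARO-KO+GCI replicate 2 it was -0.27, with 39 lower and 4 at that threshold (background 3.17%).

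Markers of endothelial and mural cells were also highest in FLOX+GCI replicate 1 and lowest in FBN-ARO-KO+GCI replicate 2, although FBN-ARO-KO+GCI replicate 1 was above FLOX+GCI replicate 2 in their sum. All 8 were lower in FBN-ARO-KO+GCI (background 51.3%), with a median log2 fold change of -0.43, and none was without counts. Their sum, led by Flt1, Cldn5 and Pdgfrb, was 273 and 191 CPM in FLOX+GCI and 210.2 and 156 CPM in FBN-ARO-KO+GCI. Groups overlapped for most of the 8, including Flt1 and Cldn5 but not Pdgfrb (background 25.8% lower without overlap). With a library left out, the highest log2 fold change was 0.01 for Flt1, 0.02 for Cldn5 and -0.25 for Pdgfrb. At an unadjusted p under 0.05 by edgeR 2 of the 8 were lower (background 7.82%), and after adjustment 0. Their part in the values of the interferon-induced genes was not tested. The 8 microglia markers summed to 438 and 417 CPM against 408 and 458 CPM, with a median log2 fold change of -0.05 and 5 of 8 lower. The 6 astrocyte markers summed to 4732 and 4986 CPM against 4934 and 5658 CPM. The 5 oligodendrocyte markers summed to 3608 and 4124 CPM against 4165 and 4278 CPM. The 6 choroid plexus markers summed to 64.6 and 50.6 CPM against 43.7 and 49.7 CPM. Of the 5 choroid plexus markers tested, 2 were lower (background 51.3%), and they differed among themselves. Ttr had 26.5 and 21.9 CPM against 8.93 and 15.6 CPM, without overlap, at -0.98 ± 0.25. Kl, the most abundant, was at 0.09 ± 0.12 with overlap. The part of Ttr in the values of the interferon-induced genes was not tested. Of 13 leukocyte markers, 2 were tested, Ptprc and Siglech, both of which microglia also express, and the list summed to 18.3 and 15.4 CPM against 16.5 and 20.9 CPM. The erythroid hemoglobin genes Hbb-b1, Hbb-b2, Hba-a1 and Hba-a2 were listed at 0. Reads that align to several places were not counted, so these zeros do not show that blood RNA was absent. The remaining erythroid marker Alas2, the heme synthesis enzyme of red cell precursors, had 4.15 and 3.08 CPM against 1.84 and 2.29 CPM, without overlap, at -0.81 ± 0.26, the same direction as most of the interferon-induced genes, and its part in their values was not tested.

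**Figure D5:**
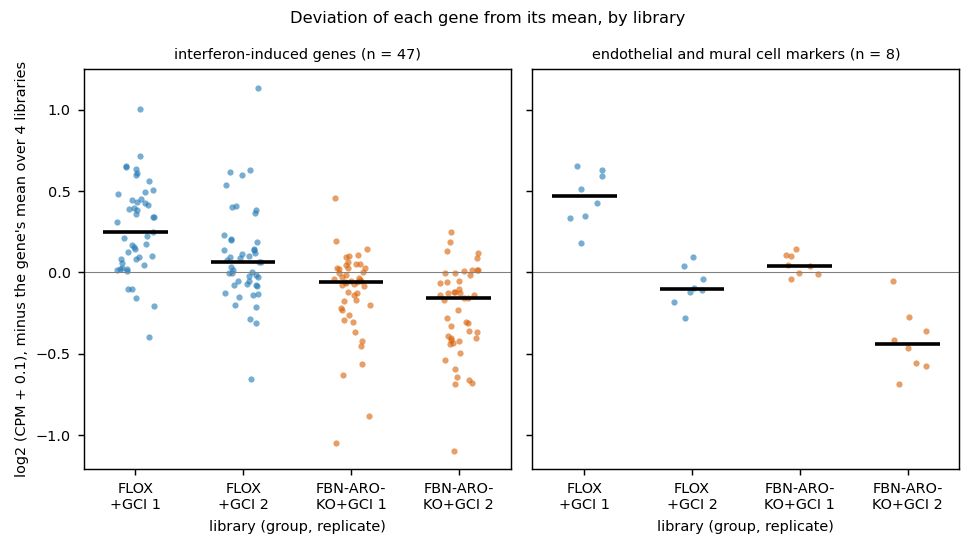
Deviation of each gene's log2(CPM + 0.1) from its own mean over the 4 libraries, for the 47 tested interferon-induced genes (left) and the 8 endothelial and mural cell markers (right), with the median of each library as a bar. In both panels FLOX+GCI replicate 1 is highest and FBN-ARO-KO+GCI replicate 2 lowest.

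GC content also moved with the difference between genotypes. Over 14004 genes with a transcript sequence, Spearman's rho between log2 fold change and GC content was -0.55, and over the 47 interferon-induced genes it was 0.14, as a description across genes, which share these 4 libraries. The median GC content of the 47 was 49.2%, against 50.6% for all. With the trend over GC content and length removed, the median log2 fold change of the 47 genes was -0.32 and that of all genes 0.03. There were again 12 genes lower at an unadjusted p under 0.05 (background 3.48%), 9 of them shared with the first fit. Irf7, Ifitm3 and Lgals3bp dropped out and Herc6, Ifih1 and Parp14 came in.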

How the data were processed

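RNA-Seq of mouse hippocampus comprised 2 FLOX+GCI and 2 FBN-ARO-KO+GCI libraries, grouped by their labels. The authors sequenced 50 nt single-end reads, aligned them to mm9 with TopHat2 2.0.8b and counted them with HTSeq. The deposited values are raw counts for each gene symbol (tools and version from the submitters' processing notes, which also name bcl2fastq). The labels say that samples were run in duplicate and raw reads combined. The strand setting and annotation release are not given in the sources used here. HTSeq's counters of unassigned reads were left out, of which reads on no gene were 12.3% to 13.7% of all reads counted on a gene, on no gene or as ambiguous.

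The members and the lists of other genes and markers were chosen with earlier results of these data known. Members were matched by symbol. The genes named are every member, the receptors and kinases and any gene of the pathway list at an unadjusted p under 0.05, the most different gene on each side near Xaf1 and the Schlafen genes with Ube2g1, the sole gene near Xaf1 under that threshold (added after its values were seen), and up to 3 leading markers of a list. Ifi27l1, Ifnz and Gbp genes were named because their counts bear on a member.

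Counts were compared in R 4.3.3 by edgeR 4.0.16's quasi-likelihood test (TMM, filterByExpr with a minimum count of 10, Benjamini-Hochberg adjustment at 0.05). The SE is the log2 fold change over the square root of F. CPM are scaled by TMM. Alternatives were DESeq2 1.42.0, size factors, library totals, other filters, the replicate number as a block, a trend over GC content and length (natural splines, 5 degrees of freedom, as an offset), and each library left out. The procedure was tested on simulated counts.

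Positions, exon lengths and GC content came from GENCODE M1 on NCBIM37, the build mm9. Of 22609 symbols 21430 had a single locus and 20245 a protein-coding transcript. Promoters were from RefSeq on GRCm38.p6.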

Additional observations from a re-analysis of the deposited data

How the results depend on the processing

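The directions of the 47 genes were the same with DESeq2 (where Xaf1 was at -2.19), size factors, library totals, a filter at 1 count, the replicate block and, for 36 genes, a filter at a mean of 50 counts. Removing the GC and length trend changed the side of 6, doing so with the block 7, and leaving out a library between 2 and 7. Genes lower at an unadjusted p under 0.05, 12 by edgeR, were 5 by DESeq2 and 4 to 14 with a library left out. Their median log2 fold change of -0.37 was -0.46 to -0.19 with a library left out, and the genes without overlap, 25 of 47, were then 27 to 34, since fewer libraries had to be separate. The higher ones stayed at 0 in every fit. Over all genes, edgeR called 2 after adjustment, with 1136 lower and 1267 higher at an unadjusted p under 0.05. DESeq2 called 285, a filter at 1 count 5, the replicate block 184, the block with the GC and length trend 1, and fits without a library 0 to 193, with 0 when FBN-ARO-KO+GCI replicate 1 (1216 lower and 1556 higher unadjusted) or replicate 2 (467 and 364) was left out. The adjusted call of Xaf1 was absent with the block and the trend together. Of the other pathway genes, the adjusted calls were 0, against 2 with the block (Socs3 and Cxcl10) and 0 to 2 without a library. Those lower at the unadjusted threshold, 9, were 4 by DESeq2, 4 with a mean of 50 counts and 2 to 10 without a library. Those higher, 2, were 0 by DESeq2, 1 with library totals, 1 with the block and 0 to 2 without a library. Near Xaf1 and the Schlafen genes, 5 genes were at that threshold in either direction (backgrounds 7.82% lower and 8.72% higher). By DESeq2 they were 4 (backgrounds 5.38% and 7.26%). Where an arm held a lone library it was assumed to vary like the other arm. The causes were not tested. Same-numbered libraries deviated together with a correlation of 0.129 across genes. Only 2 pairs exist, and no label says that a number marks a shared batch. The block is therefore given as an alternative, and under it the 12 lower genes were 15 (background 8.97%). The SEs of Mx2, Slfn8, Ifi44 and Epsti1, with at most 26 counts in a library, were the largest, 0.48 to 0.53.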
